A study of Mus musculus with 24 samples.

Results

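Bisulfite conversion of mouse mitochondrial DNA (mtDNA) between 15 and 40 min of treatment was followed in 5 preparations, each of which had 1 library per duration, so that 10 of the 24 libraries of the series were used. The preparations were ESC 1 and ESC 2, from mitochondria of the embryonic stem cell (ESC) line E14, brain 1 and liver 1, from mitochondria of mice labelled C57BL/6J, and synthetic 1, a PCR product amplified from C57BL/6J mtDNA that carries no 5-methylcytosine (5mC). Libraries are abbreviated by preparation and minutes, so that E1_15 is ESC 1 treated for 15 min and S1_40 is synthetic mtDNA treated for 40 min. The 4 native preparations had been purified as mitochondria, treated with nuclease and linearised with a restriction enzyme, whereas the synthetic DNA was made as a linear molecule, and all were mixed with unmethylated λDNA before treatment. E14 is a single cell line, the number of animals behind the brain and liver preparations and their age are not given in the sources used here, and synthetic mtDNA had a single preparation. A cytosine was followed where both libraries of a preparation covered it with 10 or more reads, which held for 1870 to 1908 of the 1939 listed cytosines of the H strand and for 2238 to 2602 of the 3890 of the L strand. In all 10 libraries, 1862 H-strand and 2067 L-strand cytosines were covered, 3929 of 5829 in all.

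Bisulfite deaminates cytosine to uracil, which is read as thymine after copying, whereas 5mC reacts far more slowly and is still read as cytosine. An unmodified cytosine that has not yet reacted therefore looks like a methylated one, and the fraction of reads with a cytosine at a site is called its unconversion rate here. The reaction needs an unpaired base, so a DNA duplex has to be denatured first. The strands of mtDNA are named after their base composition, the heavy (H) strand being rich in guanine and the light (L) strand rich in cytosine, and between them they encode subunits of the respiratory complexes, ribosomal RNAs (rRNAs) and transfer RNAs (tRNAs). mtDNA is copied within the mitochondrion, where a short displacement loop forms in the control region.

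The sequences at which the change between the durations was most unusual are given first, from the reference mtDNA (RefSeq, build mm10, chrM), 5′ to 3′ on the named strand. The first set holds the H-strand cytosines with the highest rates left at 40 min among those covered by 50 or more reads in every library, with that cytosine in capitals. They are H14511 (chrM:14496-14526, in CYTB), H5050 (chrM:5035-5065, in TrnA), H1766 (chrM:1751-1781, in mt-Rnr2), H3286 (chrM:3271-3301, in ND1), H666 (chrM:651-681, in mt-Rnr1), H6249 (chrM:6234-6264, in COX1) and H238 (chrM:223-253, in mt-Rnr1), named by strand and position.
H14511: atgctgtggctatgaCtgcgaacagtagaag
H5050: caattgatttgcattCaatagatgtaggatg
H1766: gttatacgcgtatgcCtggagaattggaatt
H3286: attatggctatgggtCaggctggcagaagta
H666: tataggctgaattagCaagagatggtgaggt
H6249: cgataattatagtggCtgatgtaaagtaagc
H238: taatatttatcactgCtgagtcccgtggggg

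The second set shows the guanine-poor stretches. The H-strand stretch of mt-Rnr1 (chrM:841-882) has its 6 cytosines with the highest mean rates at 40 min in capitals, and the L-strand runs in ND6 (chrM:13650-13804) and ND5 (chrM:13435-13479) have in capitals their 54 and 19 cytosines, every one of which stayed at 90% or more in all 10 libraries.
mt-Rnr1 stretch, H strand: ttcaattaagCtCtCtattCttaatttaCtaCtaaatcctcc
ND6 run, L strand: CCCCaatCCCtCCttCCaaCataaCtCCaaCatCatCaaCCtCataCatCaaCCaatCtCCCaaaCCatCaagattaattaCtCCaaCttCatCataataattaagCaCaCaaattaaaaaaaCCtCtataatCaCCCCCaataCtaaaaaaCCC
ND5 run, L strand: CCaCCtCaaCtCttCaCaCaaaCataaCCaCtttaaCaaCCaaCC

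The third set shows where the rates moved most, with the cytosines of each named group that were called as changed in capitals. Flanking bases are in lower case whatever their calls. The H-strand cytosines of TrnF (chrM:32-60) and the L-strand cytosines of ND4 (chrM:11458-11492) and mt-Rnr2 (chrM:1697-1727) had the largest falls, and the L-strand cytosines of mt-Rnr1 at chrM:133-165 and chrM:504-559 rose.
TrnF, H strand: ggatacaattatCCatCtaagcattttca
ND4, L strand: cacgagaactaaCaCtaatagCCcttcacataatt
mt-Rnr2, L strand: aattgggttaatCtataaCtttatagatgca
mt-Rnr1, first L-strand group: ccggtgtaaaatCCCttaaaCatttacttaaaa
mt-Rnr1, second L-strand group: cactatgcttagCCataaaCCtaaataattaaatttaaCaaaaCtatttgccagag

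The libraries held 844303 (E2_15) to 2260572 (E1_40) cytosine calls, and the median coverage of a cytosine was 242 to 503 reads on the H strand and 17 to 37 on the L strand. E1_15 stood apart from the other libraries of 15 min. Its mean H-strand rate was 10.5%, against 3.33 to 3.54% in the other 4, and its mean L-strand rate was 38.3%, against 31.2 to 32.9%. The mean changes of the strands and the counts of sites are therefore also given without ESC 1, as are further values that it moved. No 2 of the 10 libraries had the same coverage over all sites.

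On the H strand, the mean unconversion rate fell to below 1% in every preparation. It went from 10.5 to 0.510% in ESC 1, from 3.43 to 0.608% in ESC 2, from 3.54 to 0.770% in brain 1, from 3.37 to 0.554% in liver 1 and from 3.33 to 0.630% in synthetic mtDNA. The libraries of 15 and 40 min did not overlap, and ESC 1, the highest at 15 min, was the lowest at 40 min. The mean change was -4.22 ± 3.22 percentage points (SD, n = 5), lower in 5 of 5 preparations, with p = 0.0625 in the exact two-sided sign-flip permutation test, the smallest p that 5 pairs allow. Without ESC 1 it was -2.78 ± 0.0587 (n = 4), and the 4 changes lay between -2.82 and -2.70. The rate at 40 min was 0.159 ± 0.065 of that at 15 min (ratio, SD, n = 5), and 0.187 ± 0.0229 without ESC 1. The synthetic DNA changed by -2.70 percentage points, beside -2.82, -2.77 and -2.82 in ESC 2, brain 1 and liver 1. With 4 native preparations against 1 synthetic, no p below 0.2 can be reached, and no test of that difference was made.

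**Figure D1:**
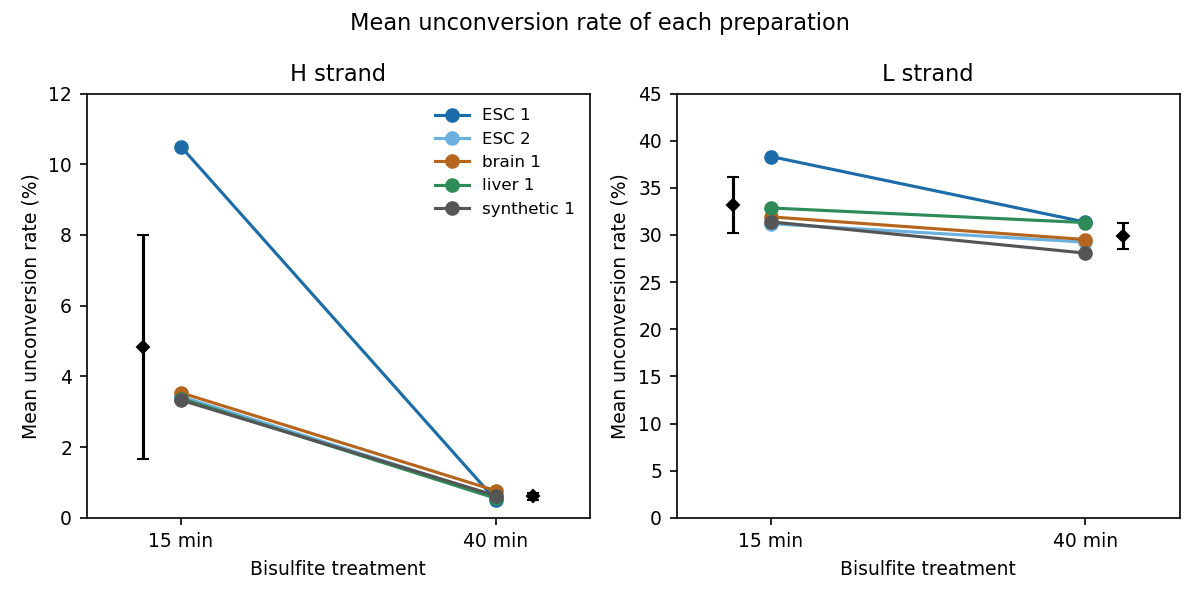
Mean unconversion rate (%, y axis) of each preparation at 15 and 40 min (x axis), for the H strand (left) and the L strand (right, other scale). Each line joins the 2 libraries of a preparation and black diamonds with bars give the mean and SD of the 5. ESC 1 starts at 10.5% on the H strand, the other 4 between 3.33 and 3.54%, and all 5 end between 0.510 and 0.770%.

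The fall on the H strand was spread over nearly all cytosines. Of the 1862 sites covered in all 10 libraries, 1724 fell (92.6%) and 0 rose (0%) at an adjusted p under 0.05 in edgeR's quasi-likelihood test with the preparation as a block. At an unadjusted p under 0.05, 0 rose in edgeR and 1 in limma, and after adjustment limma and the Cochran-Mantel-Haenszel test also called 0. At 1392 sites (74.8%) all 5 libraries of 40 min lay below all 5 of 15 min. Without ESC 1, among sites covered in all remaining pairs, 1457 sites fell, and 1 rose, the CYTB cytosine H14511. By 40 min, 26.1 to 44.6% of the covered H-strand cytosines were listed at 0%, although 0 unconverted reads still allow a rate of up to 30% at the coverage minimum of 10. The 138 sites without a call (7.41%) had a median lowest coverage of 26.5 reads, against 209 for those that fell. They included 62 of the 166 sites tested in mt-Rnr2 and 25 of the 143 tested in mt-Rnr1. The mean rates of the 138 sites moved from a median of 3.07% to 1.08%.

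The H-strand cytosines with the largest falls were 3 neighbours in TrnF, the tRNA for phenylalanine, and single sites in mt-Rnr2, COX2 and ND4. H47 of TrnF was at 28.8, 40.0, 33.3, 20 and 10.9% at 15 min in ESC 1, ESC 2, brain 1, liver 1 and synthetic mtDNA, and at 1.0, 8.7, 0.0, 2.9 and 0.0% at 40 min. The durations did not overlap, and the fall was 24.1 percentage points on average, the deepest of the strand. H48 and H44 lie beside it and share its reads. H1254 of mt-Rnr2, the 16S rRNA gene, was at 39.3, 20, 6.1, 13.6 and 3.1% at 15 min and at 0.0% in all 5 libraries of 40 min. H7682 of COX2, a subunit gene of cytochrome c oxidase, fell from a mean of 14.1 to 1.60%, and H10646 of ND4, a complex I gene, from 11.6 to 0.34%. Both cytosines had a G before and an A after them, and the durations did not overlap at either.

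**Figure D2:**
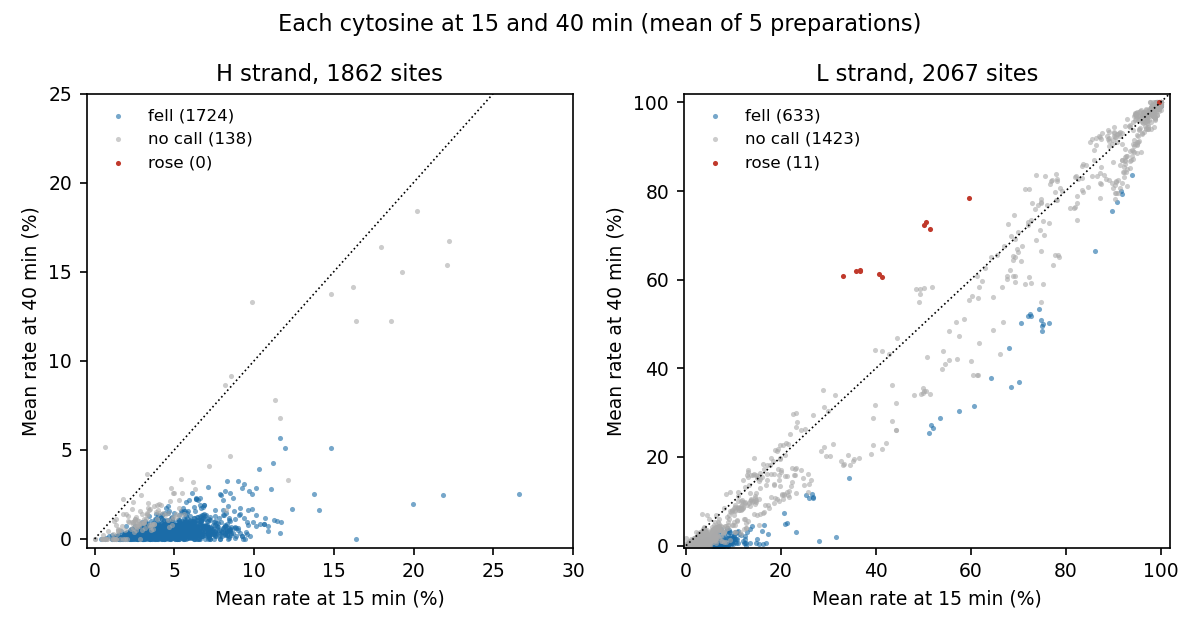
Mean rate of each cytosine over 5 preparations at 15 min (x axis, %) and 40 min (y axis, %), for 1862 H-strand (left) and 2067 L-strand sites (right). Colours mark sites that fell (blue), rose (red) or had no call (grey), and the dotted line marks equal rates. Most H-strand sites lie close to the x axis, whereas L-strand sites with high rates at 15 min lie along the dotted line.

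All genes fell on the H strand. Of 35 genes and regions with covered sites in every pair, 35 fell (100%) in the same test on summed reads, 0 rose by edgeR at an unadjusted p under 0.05, and limma also called 0 as rising. The 19 tRNA genes tested, both rRNA genes, 7 complex I genes, 3 complex IV genes, 2 complex V genes, CYTB of complex III and the control region were all among them. Among genes with 10 or more covered sites, the largest changes were in TrnY (-5.41 ± 7.10 percentage points), TrnL2 (-5.07 ± 4.2), ND6 (-4.94 ± 3.23) and ATP8 (-4.86 ± 3.20; SD, n = 5). The smallest were in mt-Rnr2 (-3.06 ± 2.84), TrnP (-3.32 ± 2.29), TrnW (-3.54 ± 2.82) and COX1 (-3.70 ± 3.01). Without ESC 1 the changes were smaller and the order differed: TrnY changed by -2.32, less than COX1 (-2.36), and TrnL2 by -3.27, while ND6 changed by -3.50, ATP8 by -3.43, TrnW by -2.28 and mt-Rnr2 by -1.79. The highest mean rates left at 40 min were 1.95% in TrnF (4 to 7 sites), 1.84% in TrnA (9 sites or more) and 1.73% in mt-Rnr1, while ND6, which encodes a complex I subunit in the opposite direction to the other protein genes, went down to 0.215%.

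**Figure D3:**
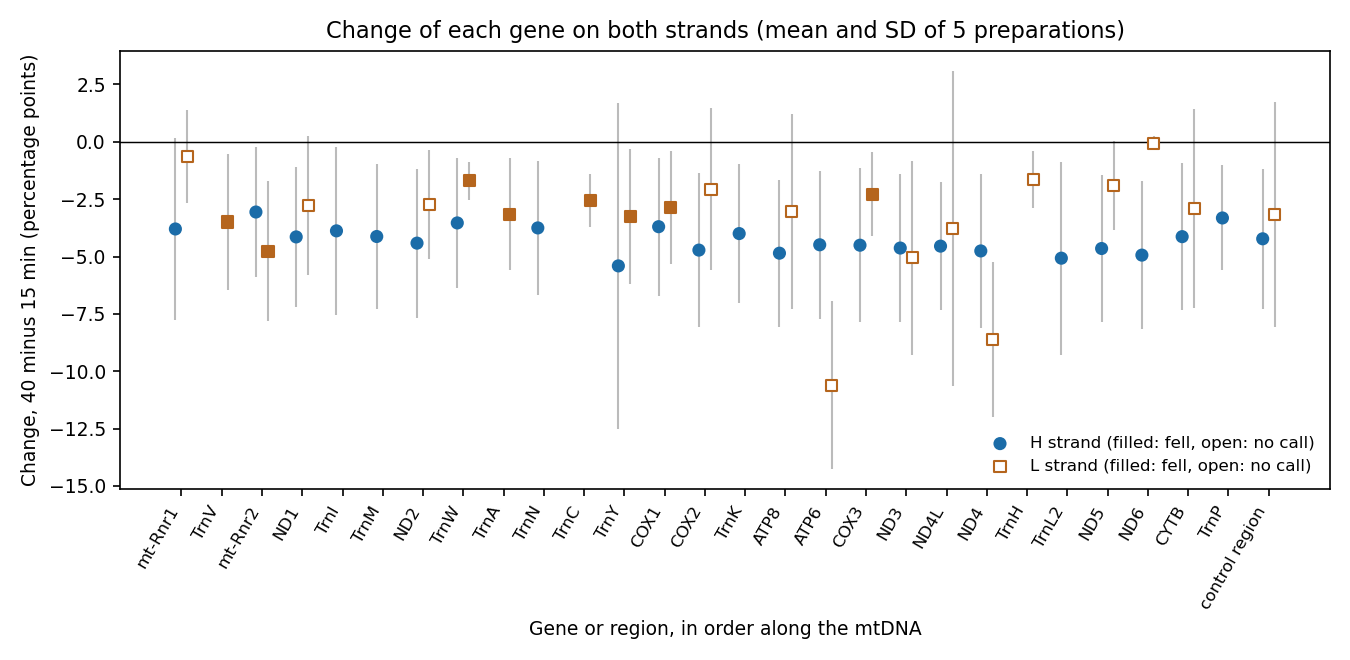
Change in mean unconversion rate (40 minus 15 min, percentage points, y axis) of each gene or region with 10 or more covered sites, in order along the mtDNA (x axis). Circles are H-strand and squares L-strand means of 5 preparations with SD, filled where the gene fell and open where it had no call. H-strand values lie between -5.41 and -3.06, whereas L-strand values run from -10.6 in ATP6 to -0.068 in ND6.

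A small number of H-strand cytosines stayed high. Of 1862 sites, 11 were at 3% or more in all 10 libraries and 2 at 5% or more. In single preparations, 1.62% (ESC 1), 2.82% (ESC 2), 3.49% (brain 1), 1.93% (liver 1) and 2.28% (synthetic mtDNA) of the covered sites were at 3% or more in both libraries, with 95% Wilson intervals for counting error of 1.15 to 2.30% in ESC 1 and 2.75 to 4.41% in brain 1. The 11 were 4 sites of a poorly covered stretch of mt-Rnr1 and 7 deeply covered single sites, H238, H666, H1766, H3286, H5050, H6249 and H7257, of which H666 and H6249 fell. The stretch and the deeply covered sites are described with the other members of their sets, which were below 3% in at least 1 library.

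The 6 sites with the highest means at 40 min all lay in the mt-Rnr1 stretch printed above, within 22 bases (chrM:851-872) in which 0 L-strand cytosines are listed. Its cytosines had 2 to 3 guanines of their own strand among the 51 bases around them, against a median of 12 over all H-strand sites. Summed over the 6 sites, the rate at 15 and 40 min was 32.1 and 2.16% in ESC 1, 25 and 13.3% in ESC 2, 16 and 23.8% in brain 1, 13.9 and 9.09% in liver 1 and 11.8 and 31.0% in synthetic mtDNA. It was thus lower at 40 min in 3 preparations and higher in the other 2. The other H-strand cytosines of mt-Rnr1 averaged 0.452 to 1.51% at 40 min. Coverage in the stretch was low, 10 to 67 reads a site, and the Wilson interval of the synthetic value at 40 min ran from 22.3 to 41.4%. None of the 6 was called, and the synthetic DNA, which holds no 5mC, had the highest rate of the 5 libraries of 40 min. After 5 min, the same sites were at 58.0 to 80.1%.

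The deeply covered sites were single cytosines among converted neighbours. They were picked after their values were seen, as the 10 highest at 40 min among sites with 50 or more reads in every library. H5050 of TrnA, the alanine tRNA gene, was at 27.6, 20.4, 11.9, 15.7 and 17.2% at 15 min in ESC 1, ESC 2, brain 1, liver 1 and synthetic mtDNA and at 8.8, 10.5, 16.5, 12.7 and 12.7% at 40 min. Brain 1 was higher at 40 min and the other 4 were lower, so the durations overlapped, whereas the 3 other covered cytosines within 20 bases had means of 0.48 to 0.60% at 40 min. H1766 of mt-Rnr2 was at 28, 12.3, 15.5, 8.5 and 17.7% and then at 9.5, 11.1, 16.4, 9.2 and 14.9%. It too overlapped, with 4 neighbours at 0.40 to 1.0%. H3286 of ND1, covered by 689 to 3650 reads, went from 20.9, 8.9, 9.7, 10.3 and 8.3% to 9.1, 4.6, 5.6, 6.9 and 7.7%. It was lower in 5 of 5 preparations but without a call (adjusted p = 0.158 in edgeR, and 0.0333 without ESC 1), and its 5 neighbours were at 0.22 to 0.70%.

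H666 of mt-Rnr1 and H6249 of COX1 were lower at 40 min in every preparation and did not reach the level of their surroundings. H666 was at 20.1, 10.4, 9.5, 8.3 and 9.9% and then at 5.5, 6.6, 5.9, 5.4 and 4.8%, beside 0.74 to 1.26% in its 3 neighbours. It fell with an adjusted p of 0.0446, which rose to between 0.0622 and 0.111 when any one preparation was left out. H6249 was at 16.3, 10.2, 12.1, 11.1 and 9.9% and then at 3.8, 6.0, 6.3, 5.9 and 3.6% (adjusted p = 0.0139, and 0.0595 without synthetic mtDNA), beside 0.26 to 1.12% around it. H238 of mt-Rnr1 had the narrowest spread at 40 min, 4.1 to 5.0%, without a call. The other 3 of the 10, H11149 of ND4, H7257 of COX2 and H12141 of ND5, averaged 3.92 to 4.26% at 40 min, and H11149 and H12141 fell (adjusted p = 0.0055 and 0.0081 in edgeR).

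H14511 of CYTB was the highest of the 10 at 40 min and the only one that was higher then than at 15 min in 4 of 5 preparations. It was at 24.7, 1.2, 4.3, 4.3 and 14.8% at 15 min and at 8.2, 11, 6.0, 17.4 and 23.9% at 40 min. The ranges overlapped and there was no call with all 5 preparations (adjusted p = 0.355), whereas it was called as rising without ESC 1 (adjusted p = 0.0366). Its 6 neighbours were at 0.10 to 1.18%. In the libraries of 60 min, which were not part of the comparison, the 10 sites were at 2.0 to 30%, the 30% being H14511 in liver 1. In ESC 1, ESC 2, brain 1 and synthetic mtDNA H14511 was at 5.3, 4.0, 2.9 and 6.7%, below its 40 min values. In synthetic mtDNA H5050 was at 8.1%, H1766 at 11.1% and H3286 at 7.1%. At 7 of the 10 sites the cytosine stood in a CHG sequence (H being A, C or T), as 19.7% of the 1631 H-strand sites of that depth did, but the 10 were chosen on their values and no test was made.

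**Figure D4:**
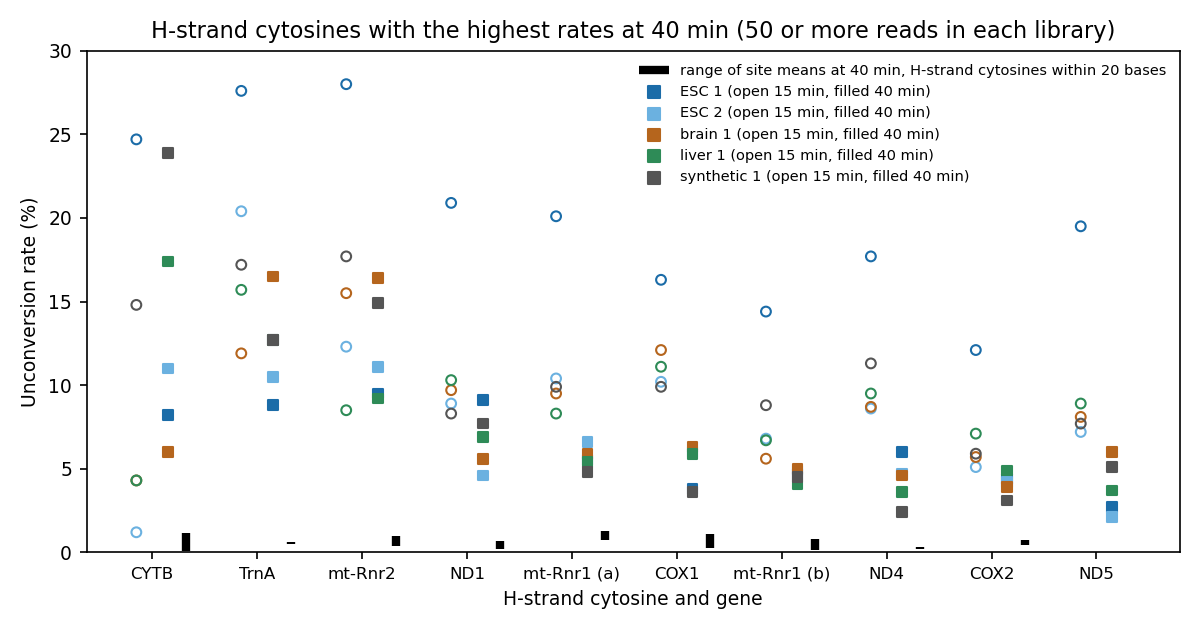
Unconversion rate (%, y axis) of the 10 deeply covered H-strand cytosines with the highest means at 40 min (x axis, by gene; mt-Rnr1 (a) is H666 and mt-Rnr1 (b) is H238). Open circles are 15 min and filled squares 40 min libraries, coloured by preparation, and black bars span the means of neighbouring H-strand cytosines at 40 min. The squares of CYTB and mt-Rnr2 lie among their circles, those of TrnA lie among or below its circles, and all black bars lie below 1.3%.

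On the L strand the mean rates were still 28.1 to 31.4% at 40 min. The mean went from 38.3 to 31.4% in ESC 1, from 31.2 to 29.2% in ESC 2, from 31.9 to 29.5% in brain 1, from 32.9 to 31.3% in liver 1 and from 31.4 to 28.1% in synthetic mtDNA. It was lower at 40 min in 5 of 5 preparations, although the ranges of the durations met, liver 1 and ESC 1 at 40 min lying above ESC 2 at 15 min. The mean change was -3.24 ± 2.18 percentage points (SD, n = 5; exact sign-flip permutation p = 0.0625, the smallest possible) and -2.31 ± 0.76 without ESC 1. When calls were summed over sites instead, so that deeply covered sites weighed more, ESC 2 went from 33.0 to 33.2% and liver 1 from 36.7 to 37.3%. The mean change was then -1.49 ± 2.34 (exact sign-flip permutation p = 0.25), which is within the spread between preparations. Reads in which 90% or more of the cytosines were unconverted, which the study removed before its own averages, cannot be told apart in the values used here.

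Of the 2067 L-strand sites, 633 fell (30.6%), 11 rose (0.532%) and 1423 had no call. At 204 sites (9.87%) all libraries of 40 min lay below all of 15 min. ESC 1 carried many of these calls, since 240 sites fell and 13 rose without it, among sites covered in all remaining pairs. Most sites that fell had started low: 561 of the 633 averaged under 10% at 15 min. So did 608 of the 1423 without a call and 0 of the 11 that rose. A low start was thus more common among sites that fell, although many low sites had no call. By the rate in S1_60, 49.6% of the sites under 5% fell, 8.98% at 5 to 50%, 10.7% at 50 to 90% and 1.07% at 90% or more. The coverage of the L strand was lower than that of the H strand, with a median lowest coverage of 52 reads at sites that fell and 31 at sites without a call, so that small changes could be seen at fewer sites. By preparation, Fisher's exact test of the 2 libraries, which compares those libraries only, called 27.1% of the covered L-strand sites as falling in ESC 1, 3.57% in ESC 2, and 3.76, 2.99 and 5.8% in the brain, liver and synthetic pairs. On the H strand these were, in the same order, 92.6, 40.6, 41.9, 47.1 and 47%. By the same test 1.35, 0.0447, 0.867, 0.342 and 0.237% of the L-strand sites rose, and on the H strand 0.0535% in liver 1 and 0% in the others.

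The largest L-strand falls lay in ND4 and mt-Rnr2. The ND4 group of 4 cytosines in 11 bases (chrM:11470-11480) averaged 74.2, 73.6, 66.9, 62.0 and 44.6% at 15 min in ESC 1, ESC 2, brain 1, liver 1 and synthetic mtDNA and 42.3, 20.6, 32.6, 42.9 and 29.6% at 40 min. The averages of the durations did not overlap, and all 4 cytosines fell, the largest change being that of L11470, -33.3 percentage points (adjusted p = 0.0014 in edgeR). In the 60 min libraries in which it was covered, all but that of ESC 2, L11470 was at 33.3 to 65.0%. Its rate was lower at 60 than at 40 min in ESC 1 and higher in brain 1, liver 1 and synthetic mtDNA. In synthetic mtDNA it went from 30.8% at 40 min to 65.0% at 60 min, above its rate at 15 min. L1709 of mt-Rnr2 went from 67.5, 34.8, 13.8, 12 and 30% to 0.7, 0.0, 4.3, 0.0 and 4.3%, and L1715, 6 bases away on the same reads, went the same way. These rRNA gene cytosines thus ended below 5% in every library, whereas those of ND4 kept intermediate rates.

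Of the 11 L-strand sites that rose, 10 lay in 2 groups in mt-Rnr1, the 12S rRNA gene. The first group of 4 (chrM:145-153) averaged 42.5, 25.5, 14.4, 26.4 and 69.2% at 15 min and 83.2, 41.7, 42.9, 74.5 and 66.3% at 40 min. It was higher in the 4 native preparations and slightly lower in synthetic mtDNA, and the durations overlapped. The second group of 6 (chrM:516-547) averaged 50.5, 63.9, 53.7, 40.4 and 36.2% at 15 min and 92.6, 53.7, 54.1, 79.5 and 67.6% at 40 min, so that ESC 1, liver 1 and synthetic mtDNA were higher and ESC 2 was lower. L516 of this group was at 93.8, 55.0, 86.2 and 72.7% at 40 min in ESC 1, brain 1, liver 1 and synthetic mtDNA. At 60 min it was at 72.7, 60.0, 60.0 and 53.7% in the same preparations. Without ESC 1, the 4 sites of the first group and L11812 of ND5 kept their calls and the 6 of the second did not, while 8 others were called, L4843 to L4872 in ND2, a complex I gene. L4872 of this group was at 89.8, 79.5, 76.9, 87.0 and 94.8% at 15 min and at 92.2, 88.2, 93.9, 89.1 and 95.5% at 40 min, higher in 5 of 5 preparations but overlapping. Without liver 1 only 3 L-strand sites in all rose, and at coverage of 20 and 30 only 4 and 1 did. Neighbouring cytosines can share reads, so the sites of a group are not separate observations. The remaining site, L11812 of ND5, moved by 0.32 percentage points, from 99.7 to 99.98% on average, and was the one site at which the libraries did not overlap upwards (0.0484%). Of the 120 L-strand sites tested in mt-Rnr1, 52 fell.

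By gene, 11 of 27 tested fell on the L strand (40.7%) and 0 rose, with 0 rising at an unadjusted p under 0.05 in edgeR and 0 in limma. These were 8 of 11 tRNA genes, the 16S rRNA gene and 2 of 3 complex IV genes, and none of the 7 complex I genes, the 2 complex V genes, CYTB, mt-Rnr1 or the control region. Among genes with 10 or more covered sites, the largest mean changes were in ATP6, a complex V gene, from 65.1 to 54.5% (-10.6 ± 3.67), and ND4, from 68.5 to 59.9% (-8.61 ± 3.38; SD, n = 5). Both were lower in 5 of 5 preparations without a call (adjusted p = 0.0972 and 0.062), and both were called without ESC 1 (0.0485 and 0.0203). TrnM, with only 6 sites, changed more, falling from 26.1 to 11.3% (-14.8 ± 10.7) in 4 of 5 preparations. ND3 went from 21.8 to 16.8% without a call, and mt-Rnr2 fell from 10.4 to 5.67% (adjusted p = 8.4e-04). At the other end, ND6 stayed at 99.3 and 99.2% (-0.068 ± 0.308), and 0 of its 99 tested cytosines fell. On the H strand of the same gene, all 31 cytosines fell, from a mean of 5.15 to 0.215%. TrnW fell from 1.78 to 0.080%, TrnH went from 10.6 to 8.93% and mt-Rnr1 from 7.86 to 7.22%, the last a balance of falling and rising sites.

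L-strand rates were ordered by the guanines around a cytosine at both durations. Guanines of the same strand were counted in the 51 bases centred on it. The 230 sites with 0 to 1 guanine averaged 89.7 ± 1.42% at 15 min and 89.6 ± 0.98% at 40 min, a change of -0.051 ± 0.667 percentage points (SD, n = 5) or 0.10 without ESC 1, and 1 of them fell (0.435%). With 15 rather than 25 bases counted on each side, the sites with 0 to 1 guanine changed by -1.72. The 422 sites with 2 to 3 guanines went from 69.4 to 65.4% (-3.97 ± 0.74), and the 575 with 4 to 6 from 25.1 to 22.04% (-3.02 ± 2.36). The 840 sites with 7 or more started at 5.49 ± 2.56% and ended at 2.61 ± 0.35% (-2.88, and -1.84 without ESC 1), and 419 of them fell (49.9%). Across the 2067 sites, Spearman's rho of the rate with the guanine count was -0.69 to -0.73 at 15 min and -0.73 to -0.75 at 40 min, a description over sites that share reads and libraries.

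The H strand, being rich in guanine, had few sites of the first kind. Its 1753 sites with 7 or more guanines went from 4.78 to 0.527% and 94.2% of them fell, and its 91 sites with 4 to 6 went from 3.93 to 0.816% (-3.12, and -1.87 without ESC 1), 68.1% of them falling at a median lowest coverage of 49 reads against 205. The 18 sites with 0 to 3 guanines kept 6.88 ± 5.24% at 40 min after 10.9 ± 4.95% at 15 min. They include the 6 of the mt-Rnr1 stretch, and their change was -3.99 ± 9.32 percentage points, or -0.39 ± 5.40 without ESC 1, which is within the spread between preparations. Coverage of 20 or more in every library leaves out the 6 sites of the stretch. Over the sites left, the change was -4.53 ± 3.36, larger than its SD. A guanine-poor window on either strand is one in which the opposite strand has few cytosines. The part that the assignment of reads to strands has in the values was not tested.

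**Figure D5:**
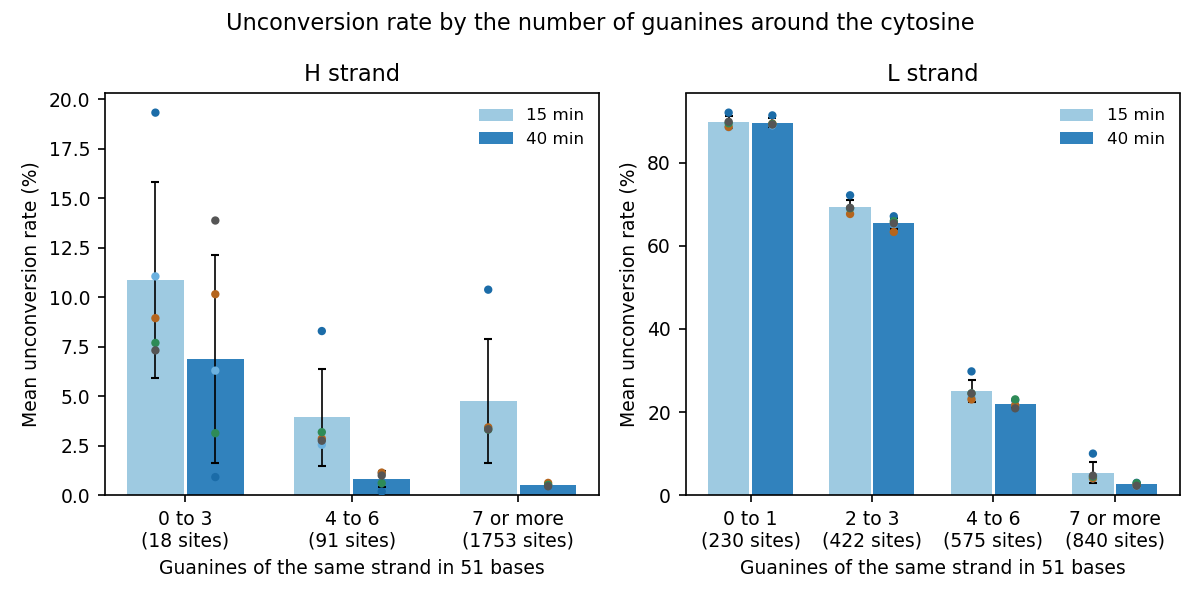
Mean unconversion rate (%, y axis, other scale on each side) by the number of guanines of the same strand in the 51 bases around a cytosine (x axis), at 15 min (light bars) and 40 min (dark bars), with SD over 5 preparations and a point for each. On the L strand the bars step down from 89.7 and 89.6% to 5.49 and 2.61%, and on the H strand only the 18 sites with 0 to 3 guanines keep a mean above 1% at 40 min.

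Sites that stayed high lay in long runs. In each preparation 18.9 to 20.5% of the covered L-strand cytosines were at 90% or more in both libraries, and 369 of the 2067 sites (17.9%) were so in all 10. Per preparation, 45 to 74 sites left this class between 15 and 40 min and 21 to 39 entered it. The 369 sites formed 31 runs of neighbouring listed cytosines, and 15 runs of 10 or more held 316 of them. They made up 97 of the 99 covered L-strand sites of ND6, 19 of 20 of ATP8, 76 of 155 of ND2, 91 of 261 of ND5 and 29 of 115 of ND4, and 0 of the 296 of COX1, the 204 of mt-Rnr2 and the 166 of COX3.

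The longest run was the ND6 stretch printed above, whose 54 cytosines averaged 99.3% at 15 min and 99.1% at 40 min at 25 to 698 reads each, and 1.29% of whose bases are guanines. The next were 47 cytosines of ND5 (chrM:11774-11935), at 99.7% at both durations, 32 of ND6 (chrM:13887-13989), at 99.7%, 29 of ND2 (chrM:4504-4591), at 98.7%, and the 19 of ND5 printed above, at 99.9 and 99.97% without a guanine in 45 bases. Guanine makes up 12.4% and cytosine 24.4% of the whole L strand. H-strand cytosines inside the 15 runs were few. In 972 bases 16 were tested and 15 fell (93.8%), close to the 92.6% outside. The mean inside went from 3.41 to 0.126%, against 4.81 to 0.606% outside. Both means were thus lower inside the runs, and the difference was not tested.

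The libraries of 60 min sorted the sites by values outside the comparison. They come from the same preparations, so a class is not independent of its rates at 15 and 40 min. L-strand cytosines under 5% in the 60 min library of their own preparation went from 4.15 ± 2.98 to 1.09 ± 0.50% (SD, n = 5), a change of -3.06, or -1.92 without ESC 1. Those at 5 to 50% went from 24.7 to 18.2% (-6.50 ± 4.05 percentage points), those at 50 to 90% from 72.7 to 68.7% (-3.99 ± 0.83) and those at 90% or more from 97.4 to 96.9% (-0.544 ± 0.605). The last change was within the spread between preparations, and at coverage of 20 the sites at 50 to 90% changed by -2.86. Even among sites that ended low, the strands differed in how much was left. Under 1% at 60 min, 11.9 ± 4.83% of the 15 min rate was left at 40 min on the H strand and 24.5 ± 11% on the L strand, or 13.8 ± 2.50 and 26.9 ± 11.1% without ESC 1. The difference was not tested, and the L-strand sites had fewer reads.

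The bases next to a cytosine went with smaller differences. On the H strand, cytosines followed by C changed by 1.19 ± 0.63 percentage points less than the others, and cytosines preceded by a purine by 0.85 ± 0.48 more than those preceded by a pyrimidine, each in 5 of 5 preparations (exact sign-flip permutation p = 0.0625, adjusted p = 0.188 over 6 contrasts). Cytosines followed by A started highest, at 6.29%, and ended at 0.689%, while those followed by C started lower and went from 3.76 to 0.498%. As a ratio, the rate at 40 min was 0.172 of that at 15 min before C. It was 0.157 before the other bases together and 0.193 before T alone. CG sites, the usual place of 5mC in nuclear DNA, went from 4.44 to 0.452% and CH sites from 4.90 to 0.642%, a difference in change of 0.27 ± 0.33 (exact sign-flip permutation p = 0.125), or 0.13 without ESC 1. No contrast can pass the threshold with 5 pairs, and on the L strand the 3 contrasts were 0.21 to 0.28 and -0.37 percentage points with p of 0.188 or more.

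Preparations were compared across sites at each duration. Pearson's r between 2 preparations across L-strand sites was 0.97 to 0.99 at 15 min and 0.98 to 0.99 at 40 min, and across H-strand sites 0.49 to 0.68 and 0.31 to 0.82. Spearman's rho was 0.81 to 0.86 and 0.85 to 0.89 on the L strand and 0.46 to 0.57 and 0.24 to 0.29 on the H strand. These values describe sites of shared sequence read at similar depth and carry no test, and the H-strand range of 40 min rests on rates close to 0.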

How the data were processed

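First reads of the PBAT (post-bisulfite adapter tagging) libraries had been trimmed with Trim Galore and mapped to mouse mtDNA (mm10) with Bismark by the authors. For each cytosine and strand the authors deposited the percent of reads in which it was unconverted and the coverage, a count of reads, with no coverage minimum. Unconverted reads were taken as percent times coverage, rounded to whole reads, and 7 values were not matched by whole reads. Of the reference cytosines, 160 were not analysed here, nor was λDNA. Intervals (95% Wilson) and the limit that 0 unconverted reads allow (3 reads of the coverage) cover counting error only, and calls of the same read are not independent.

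Samples were grouped by the labels. Libraries of the same preparation were paired, since the labels give them as the same biological replicate, and the preparation was the block. Sites and genes (RefSeq annotation) were tested with edgeR 4.0.16 (R 4.3.3), comparing unconverted with converted reads, with Benjamini-Hochberg adjustment over both strands and a threshold of 0.05. limma 3.58.1 on the empirical logit (offset 0.5), the Cochran-Mantel-Haenszel test, no block, coverage of 20 or 30, summed calls and leaving out each preparation were alternatives, and scripts were tested on simulated data. Means were tested by exact sign-flip permutation. The naming rule took, per strand, the 6 highest means at 40 min (H strand), the 6 largest falls and rises, the 5 longest L-strand runs of 90% or more, and the 4 genes with the largest and smallest change. The members and lists were chosen with earlier results of these data known.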

Additional observations from a re-analysis of the deposited data

Results flagged for a closer look

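In 28 groups of 5 preparations, 12 had 1 preparation whose gap to the nearest other was above Dixon's critical value of 0.71 of the range, and it was ESC 1 in all 12. Chance flags about 1 in 20 groups that were not chosen by their values, and the groups share libraries. The genes among the groups were named by the size of their change in these same data, so that rate does not hold for them. The H-strand mean at 15 min was 10.5% in ESC 1, against 3.33 to 3.54% in the others, and its change was -9.99 percentage points, against -2.82 to -2.70. The L-strand mean at 15 min was 38.3%, against 31.2 to 32.9%. The percent of sites that fell by Fisher's exact test was 92.6% on the H strand of ESC 1, against 40.6 to 47.1%, and 27.1% on its L strand, against 2.99 to 5.80%. The H-strand changes of ESC 1 were -17.8 percentage points in TrnY (others -4.45 to -0.38), -10.7 in ND6 (-3.90 to -3.12), -10.5 in ATP8 (-4.03 to -3.06), -9.07 in COX1 (-2.57 to -2.24), -8.58 in TrnW (-2.45 to -2.09), -8.14 in mt-Rnr2 (-1.94 to -1.68) and -7.40 in TrnP (-2.52 to -1.99). At 40 min the means of ESC 1 did not pass the same criterion on either strand.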

How the results depend on the processing

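Of 205 values of the main results under alternatives, 174 were labelled as unchanged, 30 moved and 1 reversed. Counts were judged by their ratio to the main count, and shares by the Wilson interval of the main share. Strand means and context contrasts could only stay or reverse sign, since their sign-flip p cannot pass 0.05 with 5 pairs or fewer. The tally is therefore not a measure of how stable the results are. The H-strand mean change kept its sign, and leaving out each preparation gave -4.60 to -2.78 percentage points, and -3.66 to -2.31 on the L strand. With summed calls the L-strand mean change was -1.49 (p = 0.25, exact permutation). H-strand sites that fell numbered 1457 to 1705 and L-strand sites 240 to 604 when a preparation was left out, the lowest being without ESC 1. The sites tested were then those covered in all remaining pairs, so their set differed from the main one. H-strand sites that rose numbered 0 to 1 and L-strand sites 3 (without liver 1) to 13. The Cochran-Mantel-Haenszel test, which ignores the variation between preparations, called 950 L-strand sites as falling and 34 as rising. L-strand rises numbered 4 and 1 at coverage of 20 and 30, where fewer sites are tested, and 5 by limma. Without the replicate block, 1704 H-strand and 552 L-strand sites fell and 10 L-strand sites rose, and the gene counts were 35 and 11 as with it. Leaving out a preparation gave 35 H-strand and 11 to 15 L-strand genes that fell, and 0 that rose on either strand.

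The L-strand contrast of preceding purine against pyrimidine reversed to 0.53 percentage points (p = 0.562, exact permutation) with summed calls, and the cause was not tested. Leave-one-out contrasts, added after seeing the data, ranged from 0.13 to 0.34 (CG), 0.91 to 1.28 (next C) and -0.94 to -0.64 (preceding purine) on the H strand and 0.057 to 0.32, 0.11 to 0.45 and -0.56 to -0.23 on the L strand. By Fisher's exact test at coverage of 20, 5 L-strand sites rose in liver 1, and at 30, 3 in ESC 2, 3 in liver 1 and 3 in synthetic mtDNA, with 1 H-strand site in ESC 2. The share of L-strand sites staying high in ESC 1, ESC 2, brain 1, liver 1 and synthetic mtDNA was 23.0, 22.5, 21.7, 24.0 and 21.6% at coverage of 20 and 22.8, 23.6, 22.8, 25.1 and 22.5% with a threshold of 80%. On the H strand it was 0.681, 1.12, 1.58, 0.642 and 0.794% with a threshold of 5%, and 2.64% in brain 1 and 1.62% in synthetic mtDNA at coverage of 20. Also added later, the change of L-strand sites with 0 to 1 guanine was -1.72 with 15 bases counted on each side, and that of sites with 2 to 3 was -2.70, and that of sites at 50 to 90% after 60 min -2.86, at coverage of 20. H1254 got no value from the Cochran-Mantel-Haenszel test, since all its libraries of 40 min were at 0. L-strand coverage limits how small a change could be seen.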
